A study of Sus scrofa with 8 samples.

Results

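Of the 8 genes described here, 6 encode cytochromes P450 of the CYP1A, CYP2A, CYP2B, CYP2D and CYP2E subfamilies, namely *CYP1A1*, *CYP1A2*, *CYP2A19*, *CYP2B22*, *CYP2D25* and *CYP2E1*. The others are *POR*, which encodes the reductase that feeds these enzymes with electrons, and *ALAS1*, named for the first enzyme of heme synthesis. They were chosen by symbol, each matched 1 row of the 20430 genes in the expression table, and all 8 were among the 14780 genes tested. The question was how much of each transcript the livers held, whether the level differed when squalene was added to the diet, and which of these transcripts varied together.

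Microsomal cytochromes P450 are heme proteins of the endoplasmic reticulum that insert oxygen into drugs, toxins, steroids and fatty acids. *POR* passes electrons from NADPH to nearly all of them, and heme is made along a pathway whose first step is controlled by *ALAS1* in liver. Many of the genes are found mainly in hepatocytes around the central vein and respond to ligands through receptors such as AHR, CAR and PXR. In pigs, *CYP2A19* and *CYP2E1* are known for the breakdown of skatole, the compound behind boar taint.

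Liver RNA came from male Large White x Landrace pigs that had been fed a steatotic diet, rich in saturated fat, cholesterol, cholate and fructose and poor in methionine and choline. Both groups received this diet for 1 month before the groups were formed, and fatty liver disease is thus common to all pools. For 1 further month the control group (4 pools) stayed on it and the squalene group (4 pools) received it with 0.5% squalene, a triterpene of olive oil. Each pool joined equal amounts of RNA from 3 animals, so the spread between pools is not that between pigs, and no pigs on an ordinary diet were analysed here. No age of the animals was found in the labels or the methods.

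The values are FPKM, mapped fragments scaled by the length of the gene and the depth of the library, which can be compared between genes. Summed FPKM ran from 543037 to 570855 per pool, and the depth of single pools is not recorded in that table. The authors' comparison table gives estimated counts per diet, summed over its pools, which ranged among the 8 genes from 3852 (*CYP2B22*, squalene) to 327550 (*CYP2E1*, control). Hepatocyte markers such as *ALB* and *TTR* summed to 50025 to 78260 FPKM on the control diet and 54109 to 78509 FPKM on squalene, as the tissue label says. Squalene pool 1 stood farthest from the others, with a mean correlation across genes of 0.977 with the other pools against 0.981 to 0.984. A list of 9 interferon-stimulated genes summed to 5420 FPKM in that pool, against 759 to 1586 on the control diet and 930 to 1171 for the other squalene pools. Results that lean on squalene pool 1 are therefore also given without it, and the part of the interferon response in them was not tested. In these bulk samples fewer hepatocytes and less RNA per hepatocyte cannot be told apart.

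The defining stretch of a cytochrome P450 surrounds the cysteine that holds the heme iron. It is printed to show how near the 6 genes are to each other in sequence. The stretches are 30 coding bases each, read from RefSeq transcripts of Sscrofa11.1 at the only match of the PROSITE heme-binding pattern, 5′ to 3′ on the gene's own strand, with the cysteine codon in capitals.
*CYP1A1*, chr7:58807770-58807799, plus strand: ttcggcttgggcaagcggaagTGCatcggt
*CYP1A2*, chr7:58780063-58780092, minus strand: ttcggcatgggcaagcgccggTGCataggg
*CYP2A19*, chr6:49056985-49057478, minus strand: ttctccatcggaaagcggtacTGTttcgga
*CYP2B22*, chr6:49159587-49163590, minus strand: ttctccataggcaagcgcattTGTcttggg
*CYP2D25*, chr5:6543276-6543411, plus strand: ttctcagcaggccgccgctctTGCctcggg
*CYP2E1*, chr14:141701938-141702703, plus strand: ttttccgcaggaaagcgggtgTGTgtcgga
In both CYP1A genes the stretch lay within 1 exon, and in the 4 CYP2 genes it crossed a splice junction, so that their coordinates include an intron. *CYP1A1* and *CYP1A2* shared 24 of the 30 bases, the most of any pair. The other pairs shared 15 to 22, and *CYP2D25* was the least like the rest, with 15 to 20.

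The closest relative of each P450 among 70 annotated cytochrome P450 genes and members was looked up by transcript. It was the gene with the best-scoring local alignment, which can cover only a part of the transcript. *CYP1A1* and *CYP1A2* were each other's nearest, with 82.9% identity over 1517 aligned bases. *CYP2A19* was nearest to *LOC100737508*, annotated as CYP2G1 and at 0.03 FPKM or less, with 69.4% over 1389 bases. For *CYP2E1* it was *CYP2C42*, with 67.1% over 1329 bases, and for *CYP2D25* it was *LOC100523190*, annotated as CYP2F3, with 65.8% over 447 bases. *CYP2B22* was the exception, since *LOC102165015*, annotated as CYP2B4-like, equalled it in 99.6% of 2556 bases. No source used here tells how the counting divided reads between these copies, so the level of *CYP2B22* alone is uncertain.

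The 8 genes covered a range from 10.2 to 3007 FPKM, and the order at both ends was the same in every pool. *CYP2E1* was first, *CYP2D25* second and *CYP2B22* last in all 8 pools. Between them the order changed from pool to pool. *CYP1A2* held rank 3 or 4, *POR* 4 to 6, *CYP1A1* and *ALAS1* 4 to 7, and *CYP2A19* rank 3, 4, 6 or 7. With the near-identical *LOC102165015* added, *CYP2B22* would not be last in squalene pool 1, at 28.6 FPKM against 24.4 for *CYP1A1*.

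**Figure D1:**
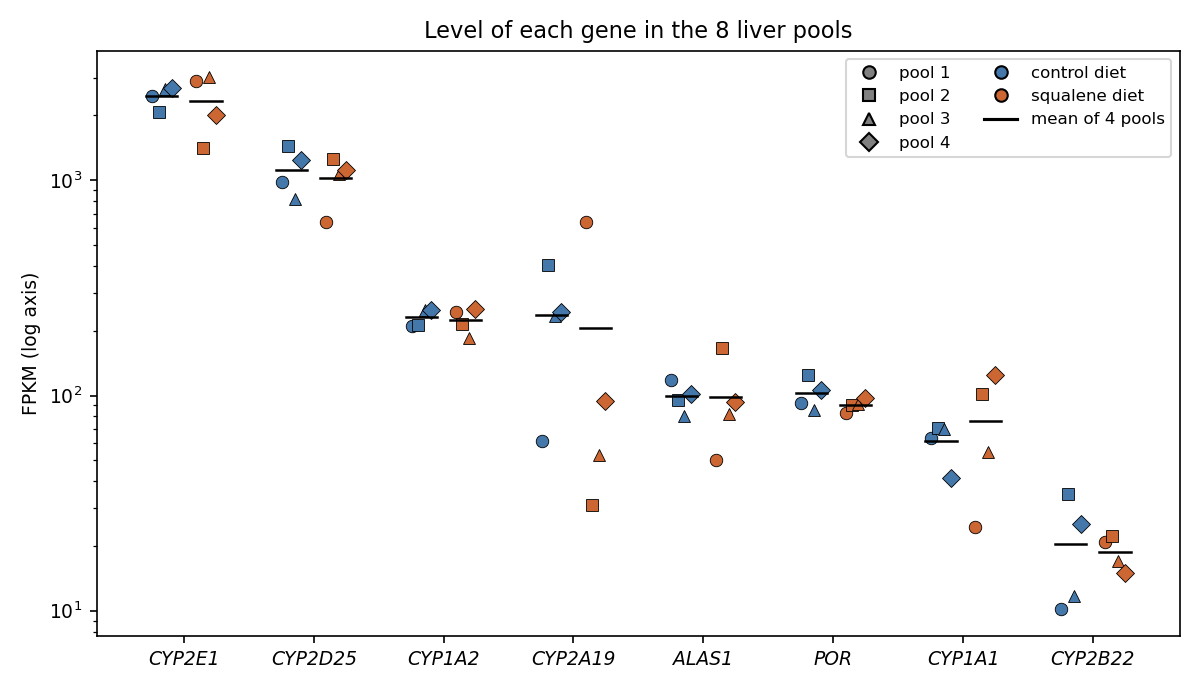
FPKM of each gene (log axis) in the 4 control pools and the 4 squalene pools, with marker shape for the pool number within a diet and a line at the mean of 4 pools. *CYP2E1* and *CYP2D25* lie above all others in every pool, the diets overlap in each gene, and *CYP2A19* runs from 31.16 to 640.88 FPKM.

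*CYP2E1*, the enzyme that oxidizes ethanol, acetone and other small molecules, had 2471, 2068, 2661 and 2688 FPKM in control pools 1 to 4 and 2883, 1416, 3007 and 2007 in squalene pools 1 to 4. The squalene pools enclosed all control pools, with squalene pool 2 the lowest of the 8 and squalene pool 3 the highest. The transcript alone made up 0.25% to 0.55% of the summed FPKM and ranked between place 22 and place 50 among all genes. The log2 fold change, squalene over control, was −0.14 with a standard error of 0.23 (95% confidence interval −0.65 to 0.37, limma).

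*CYP2D25* is known in the pig as a microsomal 25-hydroxylase of vitamin D3. It had 980, 1436, 815 and 1244 FPKM in the control pools and 642, 1250, 1073 and 1116 in the squalene pools. Its lowest value was in squalene pool 1 and its highest in control pool 2, and the diets overlapped. The log2 fold change was −0.14 with a standard error of 0.23 (95% confidence interval −0.66 to 0.38, limma), and 0.07 without squalene pool 1.

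*CYP1A2*, which metabolizes caffeine and aromatic amines, was the steadiest of the P450 transcripts. It had 211, 212, 251 and 250 FPKM in the control pools and 245, 215, 186 and 252 in the squalene pools, so that the highest pool was 1.36 times the lowest. The means were 231 ± 22.5 and 224 ± 30.6 FPKM (SD, n = 4 pools each). The log2 fold change of −0.05 (standard error 0.12, 95% confidence interval −0.32 to 0.23, limma) had the narrowest interval of the 6 P450 genes.

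*CYP1A1*, the classic target of the aryl hydrocarbon receptor AHR, is a neighbor of *CYP1A2* but was far less steady. It had 63.7, 70.3, 69.8 and 41.5 FPKM in the control pools and 24.4, 102, 54.7 and 125 in the squalene pools. The squalene pools thus held both the lowest and the highest value, a range of 5.13 times, while the control pools spanned 1.70 times. The means were 61.3 ± 13.6 and 76.4 ± 45.4 FPKM (SD, n = 4 each). The log2 fold change was 0.10 with a standard error of 0.44 (95% confidence interval −0.88 to 1.07, limma), and 0.56 without squalene pool 1. It was below 0 in 3 of the 8 fits that left out a pool, at −0.08 without control pool 4, −0.12 without squalene pool 2 and −0.22 without squalene pool 4.

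*CYP2A19* belongs to the subfamily that oxidizes coumarin and nicotine, and it varied most. It had 61.2, 404, 235 and 243 FPKM in the control pools and 641, 31.2, 53.0 and 94.5 in the squalene pools. Squalene pool 1 was the highest of all 8 pools, while the other squalene pools lay below 3 of the 4 control pools. The highest pool was 20.6 times the lowest. Means of 236 ± 140 and 205 ± 292 FPKM (SD, n = 4 each) described neither diet well, and the log2 fold change was −0.95 with a standard error of 0.86 (95% confidence interval −2.88 to 0.97, limma). Without squalene pool 1 it was −1.85 with a standard error of 0.58, which did not pass the test either (adjusted p = 0.911, limma), and control pool 1, at 61.2 FPKM, still lay within the range of the other squalene pools.

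*CYP2B22*, of the subfamily that responds to phenobarbital through the receptor CAR, was the lowest of the 8. It had 10.2, 34.7, 11.7 and 25.4 FPKM in the control pools and 20.9, 22.2, 17.1 and 14.9 in the squalene pools. Here the control pools were the wider group and enclosed all squalene pools. The near-identical *LOC102165015* had 3.92, 12, 1.59 and 12 FPKM in the control pools and 7.66, 6.32, 3.65 and 2.59 in the squalene pools, and like *CYP2B22* it was highest in control pools 2 and 4. The log2 fold change of *CYP2B22* was 0.04 (standard error 0.35, 95% confidence interval −0.74 to 0.83, limma), and that of the sum of both genes −0.04 (standard error 0.39, 95% confidence interval −0.91 to 0.84, limma). The sum was chosen after seeing the data.

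*POR* had 92.4, 124, 86.0 and 106 FPKM in the control pools and 83.0, 90.2, 91.0 and 97.3 in the squalene pools. Control pools 2 and 4 lay above every squalene pool, and the other control pools lay among them. The means were 102.2 ± 17.0 and 90.4 ± 5.85 FPKM (SD, n = 4 each), and the log2 fold change was −0.17 (standard error 0.12, 95% confidence interval −0.44 to 0.11, limma). For each unit of *POR*, the 6 P450 transcripts together had 34.0 to 47.0 units on the control diet and 33.6 to 53.7 on squalene, on the FPKM scale.

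*ALAS1* had 119, 95.6, 80.5 and 102 FPKM in the control pools and 49.9, 167, 82.4 and 93.6 in the squalene pools. Squalene pool 1 was the lowest and squalene pool 2 the highest of all pools, with the control pools between them. The log2 fold change was −0.13 (standard error 0.30, 95% confidence interval −0.80 to 0.53, limma), and 0.15 without squalene pool 1. The RefSeq annotation of Sscrofa11.1 lists *ALAS1*, on chromosome 13 from 34333263 to 34347435, as a transcribed pseudogene, so no coding sequence was read for it, and whether its FPKM stand for the functional transcript was not tested.

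None of the 8 genes differed between the diets beyond the spread between pools. The adjusted p was 0.9997 for each (limma, Benjamini-Hochberg over 14780 genes), and the smallest unadjusted p was 0.209, for *POR* (limma). Across all genes tested, 0% passed the adjusted threshold of 0.05 and 4.36% had an unadjusted p under 0.05, and the member count at either threshold was 0. Control and squalene pools were fully separate in 2.67% of all genes and overlapped in each of the 8. The intervals set the size of a difference that these pools could have hidden. They were within 1.5 times in either direction for *CYP1A2* (0.80 to 1.17 times the control level) and *POR* (0.74 to 1.08 times), and reached 0.14 to 1.96 times for *CYP2A19*.

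**Figure D2:**
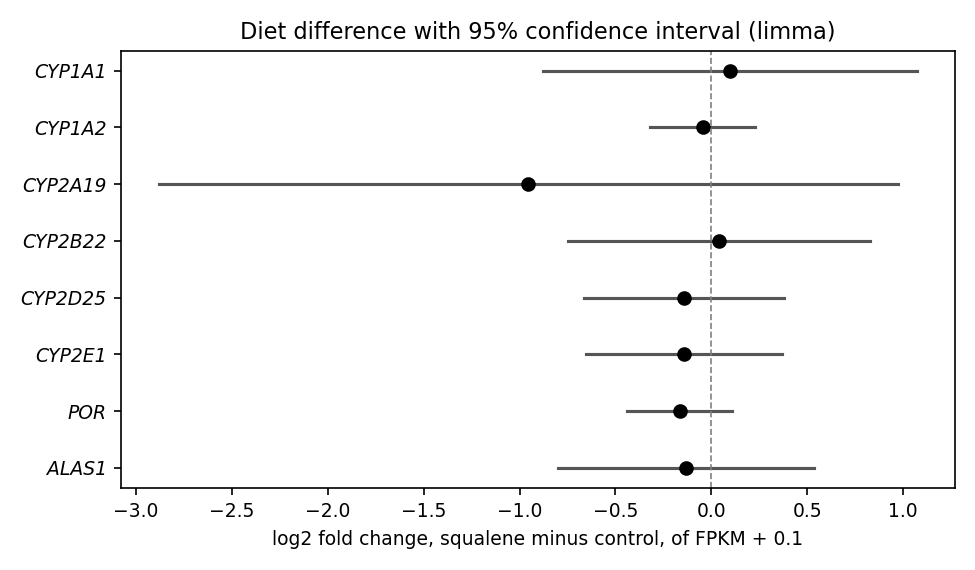
Log2 fold change of FPKM + 0.1, squalene minus control, for each gene (point) with its 95% confidence interval from limma (line), 4 pools per diet. All intervals include 0, from the narrowest for *CYP1A2* and *POR* to the widest for *CYP2A19*, −2.88 to 0.97.

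Variation within the diets set the genes apart more than the diets did. The within-diet standard deviation of log2(FPKM + 0.1) was 1.58 for *CYP2A19*, and among the 4400 genes that averaged 10 FPKM or more it was exceeded by 3, namely *OASL* (2.47), *PON3* (2.03) and *CYP2C32* (1.93). Without squalene pool 1 it was 1.03, and 20 genes exceeded it. *CYP1A1* followed with 0.79, *CYP2B22* with 0.63 and *ALAS1* with 0.53, and without squalene pool 1 these were 0.48, 0.68 and 0.39, so that *CYP2B22* then exceeded *CYP1A1*. *CYP2D25* had 0.40 and *CYP2E1* 0.38, against medians of 0.19 for genes within 2-fold of their level. Without squalene pool 1 the values were 0.29 for *CYP2D25* and 0.37 for *CYP2E1*, so that *CYP2E1* then exceeded *CYP2D25*. *POR* (0.18) and *CYP1A2* (0.17) were close to the median of their peers, 0.17 and 0.18. Thus, of the neighbors *CYP1A1* and *CYP1A2*, the first was exceeded by 56 of the 4400 genes and the second by 2187, or by 158 and 1929 without squalene pool 1.

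Squalene pool 1 held the highest or lowest value of 5 of the 8 genes and squalene pool 2 that of 3. The former was lowest of the 8 pools for *CYP1A1*, *CYP2D25*, *POR* and *ALAS1* and highest for *CYP2A19*. The latter was lowest for *CYP2A19* and *CYP2E1* and highest for *ALAS1*, so that these pools were opposite in *CYP2A19* and *ALAS1*. The ratio of *CYP2E1* to *CYP1A1*, on the FPKM scale, was 118 in squalene pool 1 and 13.9 in squalene pool 2, and lay between 16.1 and 64.8 in the others. Together the 6 P450 transcripts made up 35.2% of the summed FPKM of 37 cytochrome P450 symbols in squalene pool 1 and 20.9% in squalene pool 2. In control pools this share was 33.4% to 41.8%, and the largest share, 44.6%, was that of squalene pool 3.

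Covariation over the 8 pools was tested for all 28 pairs of the 8 genes on log2(FPKM + 0.1). Pearson's r was above 0 in 14 pairs and below 0 in 14. An unadjusted p under 0.05 was found in 5 pairs by Pearson's r and in 2 by Spearman's rho, and none passed after adjustment over the 28 pairs (exact permutation test, two-sided, smallest adjusted p = 0.275 for Pearson's r and 0.203 for Spearman's rho).

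The highest r was that of *CYP2D25* with *POR*, 0.80, with a rho of 0.74 (exact permutation test over 8 pools, p = 0.0194, adjusted p = 0.275, and p = 0.0458, adjusted p = 0.582). Both were highest in control pool 2 and lowest in squalene pool 1. Within the diets r was 0.98 in the control pools and 0.80 in the squalene pools. Without the 2 pools whose *CYP2D25* was farthest from the median, control pool 3 and squalene pool 1, r was 0.78, and with single pools left out it ran from 0.77 to 0.90. For the other P450 genes, r with *POR* ran from −0.22 (*CYP2E1*) to 0.65 (*CYP2B22*).

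The lowest r was that of *CYP2E1* with *ALAS1*, −0.75, with a rho of −0.62 (exact permutation test over 8 pools, p = 0.0423, adjusted p = 0.275, and p = 0.115, adjusted p = 0.644). It was −0.12 within the control pools and −0.88 within the squalene pools. Without squalene pools 2 and 4, the farthest from the median of *CYP2E1*, it was −0.50. It was −0.46 without squalene pool 2 alone and −0.77 without squalene pool 4 alone. Leaving out squalene pool 2 also narrows the range of both genes, so whether the relation rests on that pool was not tested.

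*CYP1A1* and *CYP2E1* had the most extreme rho, −0.88, with an r of −0.72 (exact permutation test over 8 pools, p = 0.00724, adjusted p = 0.203, and p = 0.0491, adjusted p = 0.275), and were named after these values were seen. The 2 pools with the highest *CYP1A1*, squalene pools 4 and 2, had the lowest *CYP2E1*, at 2007 and 1416 FPKM. The r was −0.53 in the control pools, −0.74 in the squalene pools and −0.82 without squalene pools 1 and 4. On deviations from the diet means, pools were also permuted within diets only. The p of r was then 0.186 for this pair (exact permutation test, adjusted p = 0.509). It was 0.0972 for *CYP2E1* with *ALAS1* and 0.0104 for *CYP2D25* with *POR* (same test, adjusted p = 0.509 and 0.292).

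**Figure D3:**
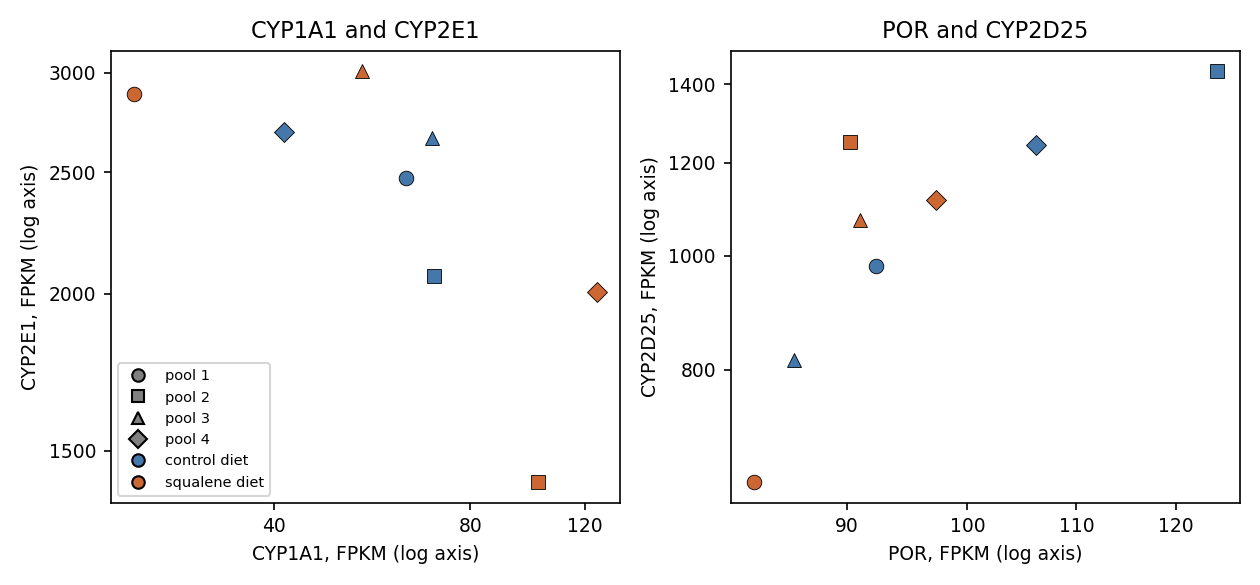
FPKM of *CYP2E1* against *CYP1A1* (left) and of *CYP2D25* against *POR* (right), log axes, 1 point per pool, colored by diet and shaped by pool number. The left pair falls (rho −0.88) and the right pair rises (r 0.80), with both diets mixed along each trend, and neither passed after adjustment over 28 pairs.

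*CYP1A1* and *CYP1A2*, which share AHR as a regulator, had an r of −0.09 and a rho of 0.26 (exact permutation test over 8 pools, p = 0.825, adjusted p = 0.924, and p = 0.536, adjusted p = 0.751). With the scaling by medians r was 0.07, so no direction is given for this pair. *POR* and *ALAS1* had an r of 0.27 and a rho of 0.48 (exact permutation test over 8 pools, p = 0.488, adjusted p = 0.759, and p = 0.243, adjusted p = 0.751). Without squalene pool 1 the r of *POR* with *ALAS1* was −0.09, so no direction is given for this pair either. Another 2 pairs had an unadjusted p under 0.05. *CYP2A19* with *ALAS1* had an r of −0.74 and a rho of −0.52 (exact permutation test, p = 0.0271, adjusted p = 0.275, and p = 0.197, adjusted p = 0.688), and its r was −0.13 without squalene pools 1 and 2. *CYP2D25* with *ALAS1* had an r of 0.72 and a rho of 0.67 (exact permutation test, p = 0.0486, adjusted p = 0.275, and p = 0.0831, adjusted p = 0.582), and its r was 0.08 without control pool 3 and squalene pool 1. Both r were thus much weaker without those pools, which were the farthest from the median of *CYP2A19* and of *CYP2D25*. Leaving them out narrows the range of that gene, so whether either relation rests on them was not tested.

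**Figure D4:**
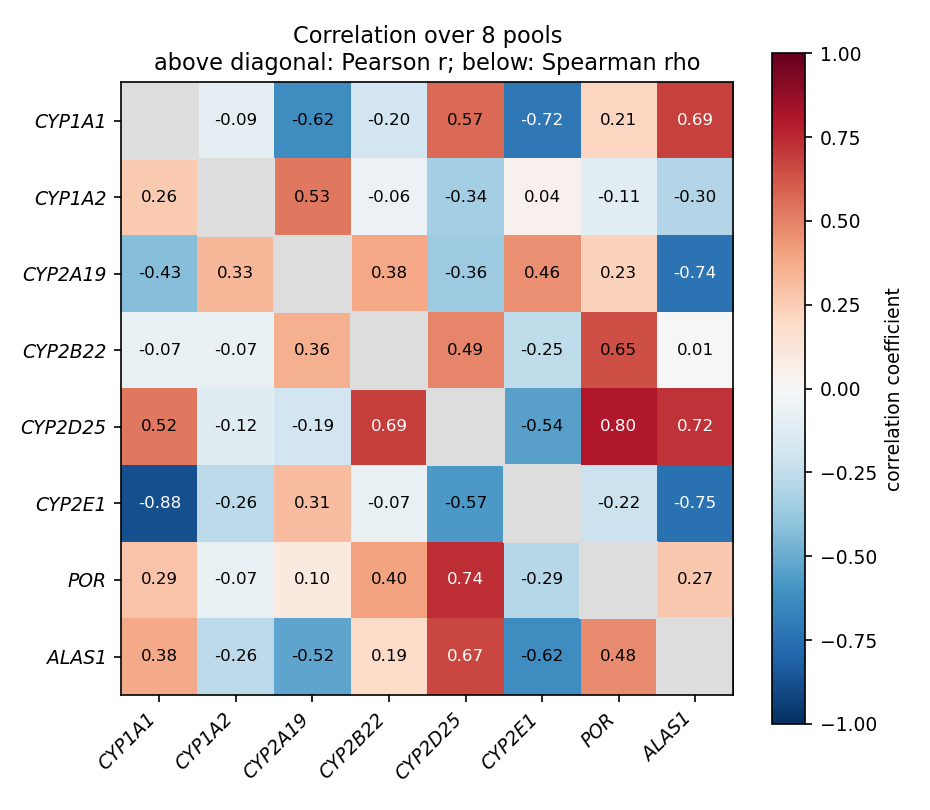
Correlation of log2(FPKM + 0.1) between the 8 genes over 8 pools, with Pearson's r above the diagonal and Spearman's rho below it, colored from −1 (blue) to 1 (red). The highest r is 0.80, for *CYP2D25* with *POR*, and the lowest is −0.75, for *CYP2E1* with *ALAS1*.

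For each gene the most similar patterns among the 10269 named, annotated genes that averaged 1 FPKM or more are given as a description. It covers the 8 pools, which all share the same libraries. With 10269 genes searched over 8 pools, high r can arise without any relation, so none is read from them. The number of genes with r above 0.9 ran from 2 (*CYP1A2*) to 36 (*CYP2D25*). Below −0.9 it ran from 0 (*POR*) to 37 (*CYP1A1*). *CYP1A1* was most like *MUL1*, a mitochondrial ubiquitin ligase (r = 0.99, 17.3 to 26.6 FPKM), followed by *ACAD8*, an enzyme of valine breakdown, and *ACVR1*, a receptor for bone morphogenetic proteins (r = 0.97 each), and most opposite to *BTBD10* (r = −0.98). *CYP1A2* was most like *CHRNB1*, a subunit of the muscle acetylcholine receptor (r = 0.93), *TTR*, the thyroxine carrier made by hepatocytes (0.92), and *UOX*, urate oxidase (0.90), and most opposite to *FRMD8* (−0.97). *CYP2E1* was most like *P2RY14*, a receptor for UDP-glucose (0.98), *GNLY*, the granulysin of cytotoxic lymphocytes (0.91), and *IGSF6* (0.91), and most opposite to *NID2*, a basement membrane protein (−0.97). Markers of T and NK cells, of which *GNLY* is typical, summed to 84.5 to 106 FPKM per control pool and 74.8 to 130 FPKM per squalene pool, and their part in the *CYP2E1* pattern was not tested.

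*CYP2A19* was most like *FANCG*, a DNA repair gene (r = 0.95), *CFP*, the complement regulator properdin (0.93), and *CD163*, the macrophage receptor for haptoglobin-bound hemoglobin (0.92), and most opposite to *COL6A3*, a collagen of connective tissue (−0.97). The 9 Kupffer cell and macrophage markers, *CD163* among them, summed to 1247 to 1587 FPKM per control pool and 1275 to 1422 FPKM per squalene pool. The 7 stellate cell and fibroblast markers summed to 137 to 193 and 137 to 250 FPKM. The part of either cell type in the *CYP2A19* pattern was not tested. *CYP2B22* was most like *ZNF770* (0.93), *C13H3orf67* (0.91) and *SGPP1*, a phosphatase of sphingosine 1-phosphate (0.91), and most opposite to *C1QTNF1* (−0.91).

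*CYP2D25* was most like *MOGAT1*, which makes diacylglycerol from monoacylglycerol (r = 0.98), *EIF4G3*, a translation initiation factor, and *USP11*, a deubiquitinase, and most opposite to *NADK2*, the mitochondrial NAD kinase (−0.95). *POR* was most like *SLC35A3*, a nucleotide sugar transporter (0.96), *MMACHC*, an enzyme of vitamin B12 processing (0.96), and *ADPRH* (0.95), and most opposite to *SERPINI1* (−0.90). Among the genes most like *ALAS1* were *LTBP3* (0.95) and *PET100*, an assembly factor of cytochrome c oxidase (0.95), and it was most opposite to *NTN1* (−0.95). None of the 8 genes was among the nearest or most opposite of another.

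The genes around these enzymes are described by lists, beside a median log2 fold change of −0.01 over all genes tested. Of 8 measured electron transfer partners of P450 enzymes, 0 passed the test, with a median of 0.09. The smallest p in this list was that of *FDX1*, the ferredoxin of mitochondrial P450 enzymes (32.4 to 46.6 FPKM on the control diet and 41.6 to 54.2 on squalene, log2 fold change 0.28), followed by its reductase *FDXR* (0.25). Of 12 heme synthesis genes, 0 passed, with a median of 0.04, and the locus annotated *ALAS1* varied more than *ALAD*, the next enzyme of the pathway: its pools ran from 49.9 to 167 FPKM, while those of *ALAD* ran from 66.2 to 80.7 FPKM. The smallest p in this list were those of *SLC25A38*, the mitochondrial glycine carrier (log2 fold change 0.24), and *CLPX*, the unfoldase that activates and degrades ALA synthase (0.16). Of 4 measured genes of heme breakdown, 0 passed, with a median of 0.01. The smallest p there belonged to the biliverdin reductases *BLVRB* (−0.08) and *BLVRA* (0.09).

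Of 9 tested genes of the AHR pathway, *CYP1A1* and *CYP1A2* included, 0 passed, with a median of 0.05. *AHR* itself had 10.4 to 12.4 FPKM on the control diet and 9.05 to 13.4 on squalene. The genes with the smallest p were the chaperone *HSP90AB1* (log2 fold change −0.15) and *NQO1*, a quinone reductase (0.40). Among 15 transcription factors and cofactors that regulate P450 genes, 0 passed, with a median of 0.02, and *ESRRA* (0.12) and *CEBPB* (−0.22) had the smallest p. *NR1I3*, which encodes CAR, had 18.6 to 23.0 FPKM on the control diet and 13.1 to 24.1 on squalene, and *NR1I2*, which encodes PXR, 29.1 to 47.5 and 28.9 to 42.0 FPKM.

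Of 26 other cytochrome P450 genes tested, 0 passed the adjusted test, with a median of 0.02. The smallest p belonged to *CYP26A1*, which degrades retinoic acid (log2 fold change −0.87, 1.95 to 7.45 FPKM on the control diet and 1.19 to 2.68 on squalene), and *CYP2C42*, the nearest relative of *CYP2E1* (−0.66, 5.31 to 12.7 and 3.47 to 8.30 FPKM). Unadjusted p was under 0.05 for these 2 (0.0442 and 0.0482, limma), as it was for 4.36% of all genes tested, and their diets overlapped. Of 15 genes typical of pericentral hepatocytes, *CYP2E1* and *CYP1A2* among them, 3 had a fitted value above 0 and 12 below, where 47.1% of all genes tested were above 0. None passed, with a median of −0.10 and the smallest p for *SLC1A2* (0.32) and *TBX3* (−0.16). Their summed level was lowest in squalene pool 2, at 1880 FPKM, against 2606 to 3285 in the control pools, and *CYP2E1*, itself a member of the list, made up most of it. Of 15 periportal genes tested, 9 were fitted above 0 and 6 below and 0 passed, with a median of 0.08 and the smallest p for *HSD17B13*, a lipid droplet protein (−0.67), and *CPS1*, the first enzyme of the urea cycle (0.47). Squalene pool 2 had a summed periportal level of 2870 FPKM, against 1936 to 2267 on the control diet, and the range on squalene was 1854 to 2987 FPKM.

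Genome positions show which of these genes are neighbors. *CYP1A2* and *CYP1A1* lie head to head on chromosome 7 of Sscrofa11.1, on opposite strands with 16731 bases between them. *CYP2A19* and *CYP2B22* lie on the same strand of chromosome 6, 94063 bases apart. Neither pair of neighbors had a correlation past the test over the 8 pools, with an r of 0.38 for *CYP2A19* and *CYP2B22* (exact permutation test, p = 0.344, adjusted p = 0.688, rho 0.36, p = 0.389, adjusted p = 0.751). The 60 bases before the annotated start are shown for both CYP1A genes, to set these neighbors side by side, and for *CYP2B22*, on the gene's own strand, with capitals for TATAAA and for GCGTG, the core bound by AHR with ARNT, on either strand.
*CYP1A1*, chr7:58802827-58802886, plus strand: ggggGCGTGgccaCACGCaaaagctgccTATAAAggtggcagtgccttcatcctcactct
*CYP1A2*, chr7:58786156-58786215, minus strand: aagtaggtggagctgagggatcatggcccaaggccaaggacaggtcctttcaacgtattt
*CYP2B22*, chr6:49173873-49173932, minus strand: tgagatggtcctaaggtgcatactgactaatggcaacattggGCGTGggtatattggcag

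Motifs are given for the genes other than *CYP2A19*. *CYP1A1* held 3 matches of GCGTG between 250 bases before and 50 after the start, while *CYP1A2* held 0 in its own window. Of 19559 promoters of protein-coding genes of the same length, 37.4% held at least 1 match and 4.20% held 3 or more. TATAAA was found in 10.9% of them and in the windows of *CYP1A1*, *CYP2E1*, *CYP2D25* and *POR*. Counted from the start, its first base lay at −32 in *CYP1A1* and −29 in *CYP2E1*. In *CYP2D25* matches on both strands overlapped, at −37 and −35. The match of *POR* lay farther away, at −132, and on the opposite strand. GTTAAT, a part of the HNF1 site, was found in 6.46% of the promoters and in the window of *POR*. A direct repeat of AGGTCA with 1 base between the copies, a form bound by nuclear receptors, was found in 6 promoters and in none of these windows. These matches describe letters in a window around an annotated start. The curated transcript models of *CYP2B22* and *CYP1A2* begin at their first codon, so both starts may lie elsewhere. For *CYP1A2* the window was set at the gene boundary, 58786155, while the curated transcript begins at 58784853. For *POR* these positions were 10272184 and 10270858. Windows at the curated starts were not searched, so the 0 of *CYP1A2* holds for the window used only.

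Base calls from the same reads gave a readout that the choice of genes did not use. The authors' table of single nucleotide polymorphism (SNP) sites lists 269579 sites with 1 base letter per pool in nearly all cells, and 160 of them lay in the 8 genes, 77 in exons. All 160 reference bases equalled the genome. *CYP1A2* held 42 sites, 16 of which were non-reference in all 8 pools, *POR* 36, *CYP2E1* 27, *ALAS1* 18, *CYP1A1* and *CYP2B22* 13 each, *CYP2D25* 10 and *CYP2A19* 1. A site could count as separating the diets only if all 8 pools had a call, which left out the only site of *CYP2A19*, among others. By this rule none of the 160 sites separated the control pools from the squalene pools. How many of all 269579 listed sites did so was not counted, so this is not a result about the 8 genes. For *CYP2B22* a site can also reflect reads of *LOC102165015*.

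*CYP2D25* stood out by its pattern among the pools. At all 10 of its sites the letter in squalene pool 1 differed from the reference, and the reference letter was given for every other pool with a call. This is the pool in which *CYP2D25* had its lowest level, 642 FPKM. A measure chosen after seeing these sites was the number of genes with at least 10 sites in which every site was non-reference in the same single pool. This held for 1 of 7676 genes, *CYP2D25*. Squalene pool 1 otherwise held 11.8% of all sites that were non-reference in a single pool, where the other pools held 9.84% to 15.7%. Whether the bases in that pool affect how reads map to *CYP2D25*, or its level, was not tested, and a single letter for a pool of 3 pigs does not give the share of each allele.

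**Figure D5:**
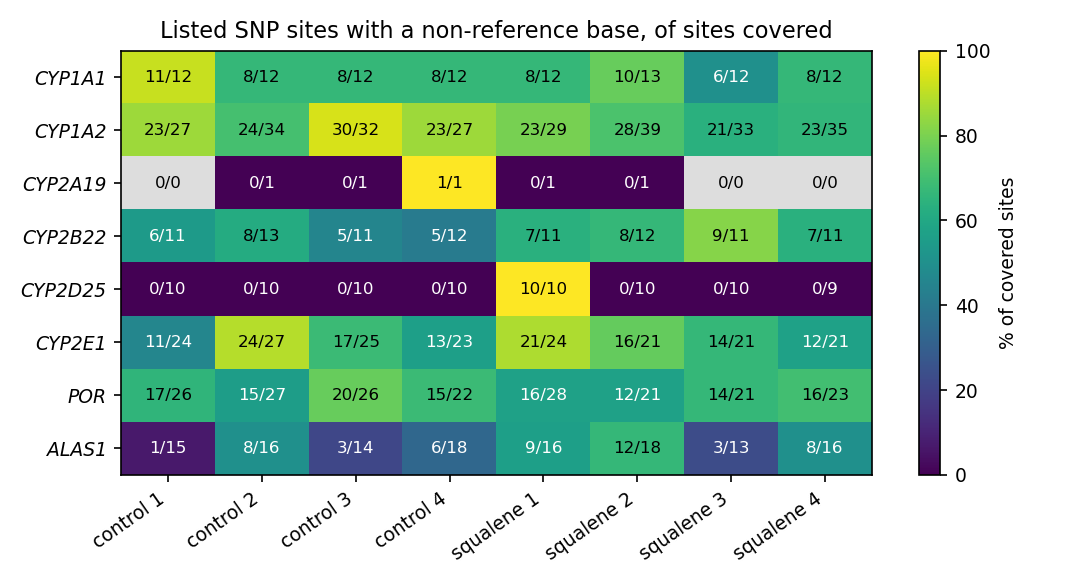
Listed SNP sites with a non-reference letter, of the sites with a call, for each gene (rows) and pool (columns), colored by the percentage of called sites, grey where no site had a call. *CYP2D25* has 10 of 10 in squalene pool 1 and 0 in the other pools, while the other genes with more than 1 site have non-reference letters in every pool.

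Of the 10 sites 9 were exonic, 8 of these in the coding sequence, and 4 of the 8 changed the encoded residue while 4 left it the same. The substitutions, with the reference base first, the position on chromosome 5 of Sscrofa11.1 counted from 1 and then the letter of squalene pool 1, on the plus strand, were A6539105G, T6542622C, T6542735C and G6543247A among those that changed the residue. The silent ones were C6541066T, C6542289T, T6542292C and C6543236T. C6542495T lay in an intron and T6543583C in an exon after the stop codon. The reference sequence around the 2 closest groups of sites is given on the plus strand, which is the strand of the gene, with the sites in capitals.
*CYP2D25*, chr5:6542276-6542305: ctgacctgttctcCgcTgggatgatcacca
*CYP2D25*, chr5:6543227-6543256: cttcctggaCgcccagggccGcttcaccaa
The first window holds C6542289T and T6542292C, and the second holds C6543236T and G6543247A.

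The authors' tables of alternative splicing listed 61 events at the threshold used there, and none of these fell in the 8 genes. With so few events beside 20430 genes in the expression table, this is not a result about the 8 genes. Retained introns were not analysed here.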

How the data were processed

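The authors mapped reads from 8 liver pools to Sscrofa11.1 with HISAT2 and deposited FPKM per gene and pool, to 2 decimals. The step from alignments to FPKM and the SNP caller: not given in the sources used here. They also deposited estimated counts added per diet with the gene length, and base letters (an other kind of value) per SNP site. The authors' log2 ratios, p-values and q-values of their own comparison were not used. The diets were compared on log2(FPKM + 0.1) in limma (version 3.58.1, R version 4.3.3; lmFit, then eBayes allowing a trend in the variance) for all genes averaging 0.1 FPKM or more, with Benjamini-Hochberg adjustment, a design tested on simulated data. Fold changes on this scale understate changes of low genes. Correlations were tested exactly over 40320 pairings of the pools. Nothing in the labels shows more than separate pools, so p-values measure the spread between pools. Sequences and gene models came from RefSeq, and transcripts were compared with blastn. Alternatives covered the pseudocount, filter, scaling, variance trend, blocking by pool number and each pool left out. Genes named besides the 8 were mainly the 2 smallest p per list and the 3 most similar and 1 most opposite pattern per gene, and some results are not reported here. *ALAD*, *AHR*, *NR1I3*, *NR1I2* and the 3 genes more variable than *CYP2A19* were named after their values were seen. The members and lists were chosen with earlier results of these data known. Other steps ran in Python 3.11.15 (scipy 1.17.1, numpy 2.4.6, pandas 2.3.3, figures with matplotlib 3.10.9).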

Additional observations from a re-analysis of the deposited data

Results flagged for a closer look

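*CYP2A19* in squalene pool 1, at 640.88 FPKM, lay far from the other 3 squalene pools (31.2, 53.0 and 94.5 FPKM). Its gap to the next pool, relative to the range of the 4 pools on the FPKM scale, was above Dixon's 95% critical value for 4 pools. The same gap on the log2 scale of the other tests was not tested. This flag was 1 of 16 groups tested (8 genes in 2 diets), and chance flags about 1 in 20 groups of normally distributed values.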

How the results depend on the processing

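No member passed the test under any alternative, with adjusted p of at least 0.911 (limma). With single pools left out, the log2 fold change ran from −0.22 to 0.56 for *CYP1A1*, −0.11 to 0.0421 for *CYP1A2*, −1.85 to −0.39 for *CYP2A19*, −0.23 to 0.35 for *CYP2B22*, −0.28 to 0.0661 for *CYP2D25*, −0.29 to 0.0756 for *CYP2E1*, −0.24 to −0.07 for *POR* and −0.43 to 0.15 for *ALAS1*. Among the other alternatives, quantile normalization gave 0.00677 for *CYP1A2* and the sum with *LOC102165015* gave −0.0375 for *CYP2B22*, both opposite in sign to the main value, and the cause was not tested. Over all genes 0 passed the test, except 1 with no trend in the variance (adjusted p = 0.0448, limma) and 1 without control pool 2 (adjusted p = 0.0341, limma), a range of 0 to 1 with single pools left out. No member pair passed after adjustment under any alternative. The r of *CYP1A1* with *CYP1A2* was 0.0697 with scaling by medians and ran from −0.40 to 0.18 with single pools left out, and that of *POR* with *ALAS1* from −0.0908 to 0.53. In exons alone, SNP sites numbered 21 in *CYP1A2*, 0 in *CYP2A19*, 6 in *CYP2E1*, 15 in *POR* and 4 in *ALAS1*. The depth of single pools is not known here, so no counting interval is given, and *CYP2B22*, with the fewest added counts, has the largest counting error.

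Pools of the 2 diets share only a number. Same-numbered pools correlated in their deviations with r of 0.09, 0.02, 0.03 and −0.07, and with a replicate block 0 genes passed (smallest adjusted p = 0.657, limma), as without it. The block left the fold changes as they were (−0.95 for *CYP2A19* and −0.17 for *POR*, adjusted p = 0.985 for both, limma) and changed no call of the 8 genes.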
